A study of Danio rerio with 12 samples.

Results

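Macrophages and microglia of the larval zebrafish eye were compared between 2 ages in eyes whose retinal pigment epithelium (RPE) was intact. The comparison takes the 6 libraries of larvae that received no metronidazole, of 12 libraries in all, and sets the 3 sampled at 4 days post-injury (dpi) against the 3 sampled at 2 dpi. The libraries were chosen by the treatment and time labels alone and not by any measured value. The gene lists used below were written with earlier results of these data known. No tissue was ablated in these larvae, so dpi only names the sampling day of the matched ablated larvae, and the comparison is one of larval age. The title of 2 dpi replicate 2 gives that age as 7 days post-fertilisation, and the labels give no age for the other unablated libraries. All larvae, at both times and in both treatments, were kept in phenylthiourea from 0.25 to 5 days post-fertilisation to block pigmentation. The 6 ablated libraries came from larvae that were given 10 mM metronidazole for 24 h to remove the RPE. They give a second view of the same interval. They also entered the fit, so the spread behind each p-value was estimated from all 12 libraries. Cells positive for the red fluorescent protein mCherry were sorted from dissociated eyes, at most 1000 per library. The transgene that drives mCherry and the ablation line are not named in the labels, nor is it stated whether unablated larvae carried the ablation transgene. The labels give no number of pooled larvae. Whether replicate libraries stem from different larvae is not stated, so the p-values speak only for the spread among these libraries, part of which may be technical.

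Macrophages of the larval eye derive from early myeloid progenitors that migrate into the eye cup, and those that settle in the retina become microglia. Tissue macrophages keep their numbers partly by dividing in place. They clear dying neurons through receptors for exposed phosphatidylserine, digest them in lysosomes and export the cholesterol and phospholipid that the cargo leaves behind. Levels are in CPM, which are counts scaled to a common library size after normalisation by the trimmed mean of M-values. Log2 fold changes are 4 over 2 dpi with their standard error (SE), so a negative value means a lower level in the older larvae. A gene is said to have passed, risen or fallen when its Benjamini-Hochberg adjusted p from edgeR's quasi-likelihood test over 18079 genes was under 0.05.

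The 2 dpi libraries held 22153576, 19791633 and 35469597 counts and the 4 dpi libraries 32585600, 20778047 and 32552291, with 16672 to 19601 genes detected and 2.98% to 3.38% of counts from mitochondrially encoded genes. The titles carry dates: 12/19, 11/14 and 11/25 for replicates 1, 2 and 3 at 2 dpi, and 11/7 for all 3 at 4 dpi. No date holds unablated libraries of both times, so age and title date cannot be told apart and no value within a date can be had. The 2 dpi libraries also differed more among themselves. Their log2 CPM correlated across genes, which are not independent, at r = 0.708 to 0.891, against 0.915 to 0.936 among the 4 dpi libraries. Photoreceptor RNA separated them most. The 74 measured rod and cone genes, tested or not, took 15.5% and 13.5% of counts in 2 dpi replicates 1 and 2, and 0.145% in replicate 3. At 4 dpi the same genes took 0.741%, 0.124% and 0.777%. The mean share was 9.70% at 2 dpi and 0.547% at 4 dpi, and the ages overlapped through replicate 3.

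The sorted cells carried the RNA of macrophages at both ages. mpeg1.1, the perforin-like gene that marks zebrafish macrophages (GRCz11 chromosome 8, 29710110 to 29713621), stood at 1615, 2458 and 2545 CPM at 2 dpi and at 2435, 2350 and 2980 CPM at 4 dpi. The groups overlapped, with a log2 fold change of 0.23 (SE 0.21, adjusted p = 0.709). Of the 36 genes of the macrophage identity list, lyz was too low to pass the filter on counts. The 35 tested members were detected in every library, except for 1 member in replicate 2 of 2 dpi. As the filter keeps only genes with enough counts, their detection was largely set by it. RNA of other blood and vessel cells was low but not absent. The neutrophil list took 0.0576% to 0.135% of counts at 2 dpi and 0.107% to 0.136% at 4 dpi. Of its defining genes, lyz reached at most 0.0521 CPM and mpx was at 0 in 5 libraries and at 2.22 CPM in 4 dpi replicate 2, whereas npsn stood at 13.2, 50.1 and 50.5 CPM and then at 23.4, 21.7 and 8.91 CPM. The vascular and mural list took 0.0165% to 0.0420% of counts at 2 dpi and 0.0540% to 0.0595% at 4 dpi, without overlap. The endothelial receptor gene kdrl gave counts in 1 library, cdh5, the endothelial cadherin gene, lay between 0 and 13.4 CPM, and pdgfrb, the receptor gene of mural cells, between 8.67 and 17.3 CPM. The globin genes hbaa1 and hbba2 were at 0 counts in all 6 libraries, and the erythrocyte list took at most 0.00950% of counts. The part of these cells in the results was not tested. epcam, a cell adhesion gene of epithelia and of the ectoderm-derived metaphocytes, was high throughout, at 169, 1125 and 3542 CPM at 2 dpi and 975, 1196 and 1105 CPM at 4 dpi. The labelled cell type was therefore present in all 6 libraries together with RNA of photoreceptors and of epithelial or metaphocyte cells.

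Between the ages 157 genes passed the test, which is 0.868% of those tested. Of these 47 rose (0.26%) and 110 fell (0.608%), and in each of the 157 the 3 libraries of one age all lay above those of the other. Non-overlap of that kind held for 3317 genes in all (18.3%), and 2756 genes had an unadjusted p under 0.05, of which 1271 were higher (7.03%) and 1485 lower (8.21%). The smallest adjusted p was 0.00466. By smallest p, the genes that fell were led by machinery of cell division. By number, the list of nuclear oxidative phosphorylation genes held the most (18), then mitosis and cytokinesis (10) and DNA replication (6). Among the 47 genes that rose no list held more than 3. In bulk sorts such as these, fewer cells of a type and less RNA per cell cannot be told apart. The count moved with the libraries in the fit. It was 138, 24 and 493 without 2 dpi replicate 1, 2 or 3, and 14, 76 and 34 without 4 dpi replicate 1, 2 or 3. Of these, 84, 19 and 309 and then 11, 67 and 28 were lower, among 18694 to 18947 genes tested. Leaving out both photoreceptor-rich 2 dpi libraries left replicate 3 alone at 2 dpi. Replicate 3 was poor in photoreceptor RNA but the richest 2 dpi library in epithelial RNA. In it the metaphocyte and epithelium list took 2.35% of counts, against 0.181% and 0.901% in replicates 1 and 2. The fit without replicates 1 and 2 therefore differs in both kinds of RNA. That fit had no replicates at 2 dpi, so only its log2 fold changes and their medians are described. Its call counts appear only where all processing settings are listed, and they are not read as results. With the 6 unablated libraries fitted alone, edgeR called 0 genes (1699 at an unadjusted p under 0.05). With DESeq2's size factors in place of the normalisation used here, 38 genes were called higher and 243 lower, and the median of all genes moved from -0.08 to -0.20. With limma on log2(TPM + 1), where that median was 0.18, 536 were called higher and 229 lower. All 157 genes kept their direction in every alternative that measured them. Since none of them overlapped between the ages, leaving out libraries could hardly have turned a sign. Of the 47 named genes that passed, 19, 37 and 2 lost the call without 2 dpi replicate 1, 2 or 3, and 40, 33 and 37 without 4 dpi replicate 1, 2 or 3.

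**Figure D1:**
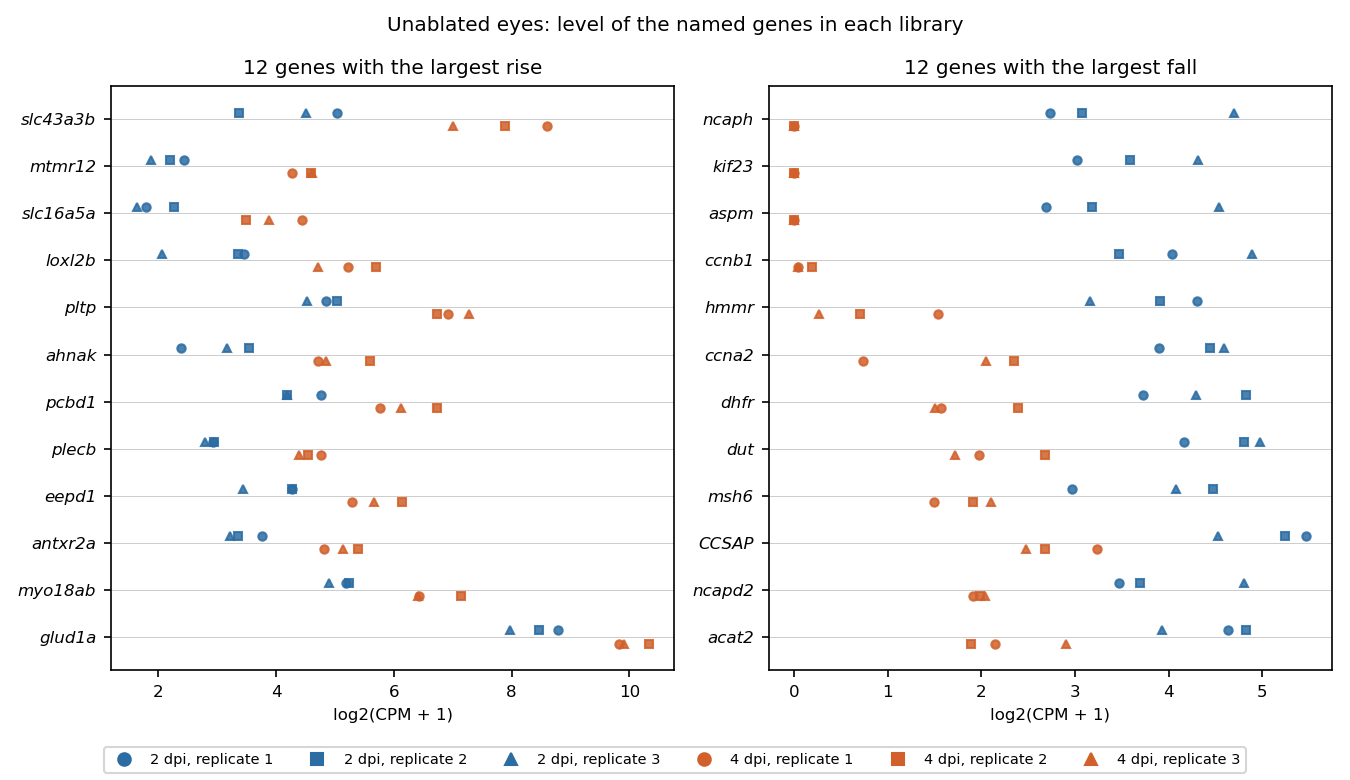
Level of the 24 named genes in each of the 6 unablated libraries, as log2(CPM + 1). They are the 12 largest rises and the 12 largest falls among called genes with a group mean of at least 10 CPM and no placeholder symbol. Blue is 2 dpi, orange is 4 dpi and the marker shape gives the replicate; in each row the 2 colours do not overlap, and ncaph, kif23 and aspm lie at 0 in all 3 libraries of 4 dpi.

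Genes of mitosis and cytokinesis were lower at 4 dpi, and some were no longer detected. Of 58 tested members of this list 10 fell (against 0.608% of all genes) and 0 rose. The log2 fold change was negative for 56, with a median of -3.52 against -0.08 over all genes tested. The 3 libraries of 4 dpi lay below all 3 of 2 dpi for 47 of the 58, against 8.03% of all genes tested. Averaged over the list, log2(CPM + 1) was 3.32, 3.74 and 4.41 at 2 dpi and 0.85, 1.82 and 1.41 at 4 dpi. In the 2 dpi libraries 57, 58 and 57 of the 58 members gave at least 1 count, and in the 4 dpi libraries 35, 49 and 43. The number of members that fell was 7 to 12 when any single library was left out. The median was -3.91 without both photoreceptor-rich libraries, a fit with replicate 3 alone at 2 dpi. With 2 dpi replicate 3 left out 1 member rose. The list's mean was highest in 2 dpi replicate 3, the library poor in photoreceptor RNA and richest of the 2 dpi libraries in epithelial RNA. The part of either RNA in this result was not tested.

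In 3 members of this list no counts were left in any of the 3 libraries of 4 dpi. kif23, the central spindle kinesin of cytokinesis (chromosome 18, 20435821 to 20458840), stood at 7.13, 11.04 and 18.8 CPM at 2 dpi and gave 0 counts in all 3 libraries at 4 dpi. With 3 counts set as the floor of each library, it was at least 115-fold lower (adjusted p = 0.00466). ncaph, a subunit of the condensin I complex that compacts mitotic chromosomes (chromosome 5, 28259655 to 28270945), went from 5.66, 7.39 and 24.9 CPM to 0 counts, at least 118-fold lower (adjusted p = 0.00802). aspm, which encodes a spindle pole protein (chromosome 22, 23546926 to 23582605), went from 5.47, 8.07 and 22.3 CPM to 0 counts, at least 112-fold lower (adjusted p = 0.0115). In these 3 genes 2 dpi replicate 3 was the highest library, and their counts in single 2 dpi libraries ran from 112 to 844. A second condensin I subunit gene, ncapd2, did not vanish. It stood at 10.1, 11.9 and 26.8 CPM at 2 dpi and 2.75, 2.95 and 3.097 CPM at 4 dpi (log2 fold change -2.47, SE 0.37, adjusted p = 0.026).

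The mitotic cyclins fell together. ccnb1, the cyclin B gene that partners Cdk1 at entry into mitosis (chromosome 5, 54711027 to 54714789), stood at 15.4, 10.1 and 28.6 CPM at 2 dpi and at 0.0289, 0.145 and 0.0295 CPM at 4 dpi, which are 1, 3 and 1 counts (log2 fold change -8.14, SE 0.78, adjusted p = 0.00466). ccna2, the cyclin A gene of S phase and G2, stood at 13.9, 20.8 and 22.99 CPM and then at 0.665, 4.11 and 3.13 CPM (-2.87, SE 0.55, adjusted p = 0.0447). ccnb3 fell as well (-4.67). Replicate 1 was the lowest of the 4 dpi libraries for ccna2 and ccnb3, and neither gene's groups overlapped.

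The remaining calls of the list, haus4, spc25 and hmmr, were spindle and kinetochore genes. haus4, of the augmin complex that nucleates spindle microtubules, gave 557 counts at 2 dpi and 1 at 4 dpi, a ratio of 675 (95% counting interval 121 to 26700, counting error only; adjusted p = 0.00466). spc25, a subunit of the Ndc80 kinetochore complex, stood at 9.18, 7.97 and 5.95 CPM and then at 0.174, 0.628 and 0.442 CPM (-4.22, SE 0.45, adjusted p = 0.00752). hmmr, whose product takes part in spindle assembly, stood at 18.7, 14.01 and 7.93 CPM and then at 1.91, 0.628 and 0.206 CPM (-3.88, SE 0.75, adjusted p = 0.0449). Outside the list, CCSAP (1 of many), named for a centriole and spindle protein, fell too. It stood at 43.3, 36.8 and 22.02 CPM and then at 8.42, 5.41 and 4.54 CPM (-2.47, SE 0.43, adjusted p = 0.0412). The deposited symbol marks it as 1 of several like copies, so its reads may be shared with them. For spc25, hmmr and CCSAP the order within 2 dpi ran opposite to that of kif23, with replicate 1 highest and replicate 3 lowest. mki67, the proliferation marker, stood at 10.8, 47.9 and 41.4 CPM at 2 dpi and at 1.91, 5.94 and 6.67 CPM at 4 dpi. Its groups did not overlap, but it did not pass (-2.79, SE 0.64, adjusted p = 0.0751).

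DNA synthesis genes were lower too, by less. Of 56 tested members of the DNA replication list 6 fell (against 0.608% of all genes) and 0 rose. The log2 fold change was negative for 54, with a median of -1.46. The 3 libraries of 4 dpi lay below those of 2 dpi for 29, against 8.03% of all genes tested. dut, the dUTP pyrophosphatase that keeps uracil out of DNA (chromosome 18, 5308392 to 5318966), stood at 16.8, 26.8 and 30.4 CPM and then at 2.92, 5.41 and 2.30 CPM (-2.80, SE 0.40, adjusted p = 0.0251). dhfr, the dihydrofolate reductase of thymidylate synthesis (chromosome 5, 26138313 to 26146488), stood at 12.3, 27.3 and 18.6 CPM and then at 1.97, 4.25 and 1.83 CPM (-2.86, SE 0.45, adjusted p = 0.0319). In both genes the lowest 2 dpi library lay well above the highest 4 dpi library. rpa3 and rpa1, subunits of the single-strand binding complex RPA, fell by 1.79 (SE 0.26, adjusted p = 0.0251) and 1.27 (SE 0.23, adjusted p = 0.0412) on the log2 scale. The clamp loader gene rfc4 (-1.57) and the flap endonuclease gene fen1 (-1.50) were the remaining members that fell. Outside the list, the mismatch repair gene msh6 stood at 6.83, 21.1 and 15.9 CPM and then at 1.82, 2.75 and 3.303 CPM (-2.48, SE 0.46, adjusted p = 0.0423). The list's 6 calls became 0 without 2 dpi replicate 2, 0 without 4 dpi replicate 1, 1 without 4 dpi replicate 3 and 9 without 2 dpi replicate 3; they were 6 and 5 in the remaining omissions, and 12 with DESeq2's size factors.

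**Figure D2:**
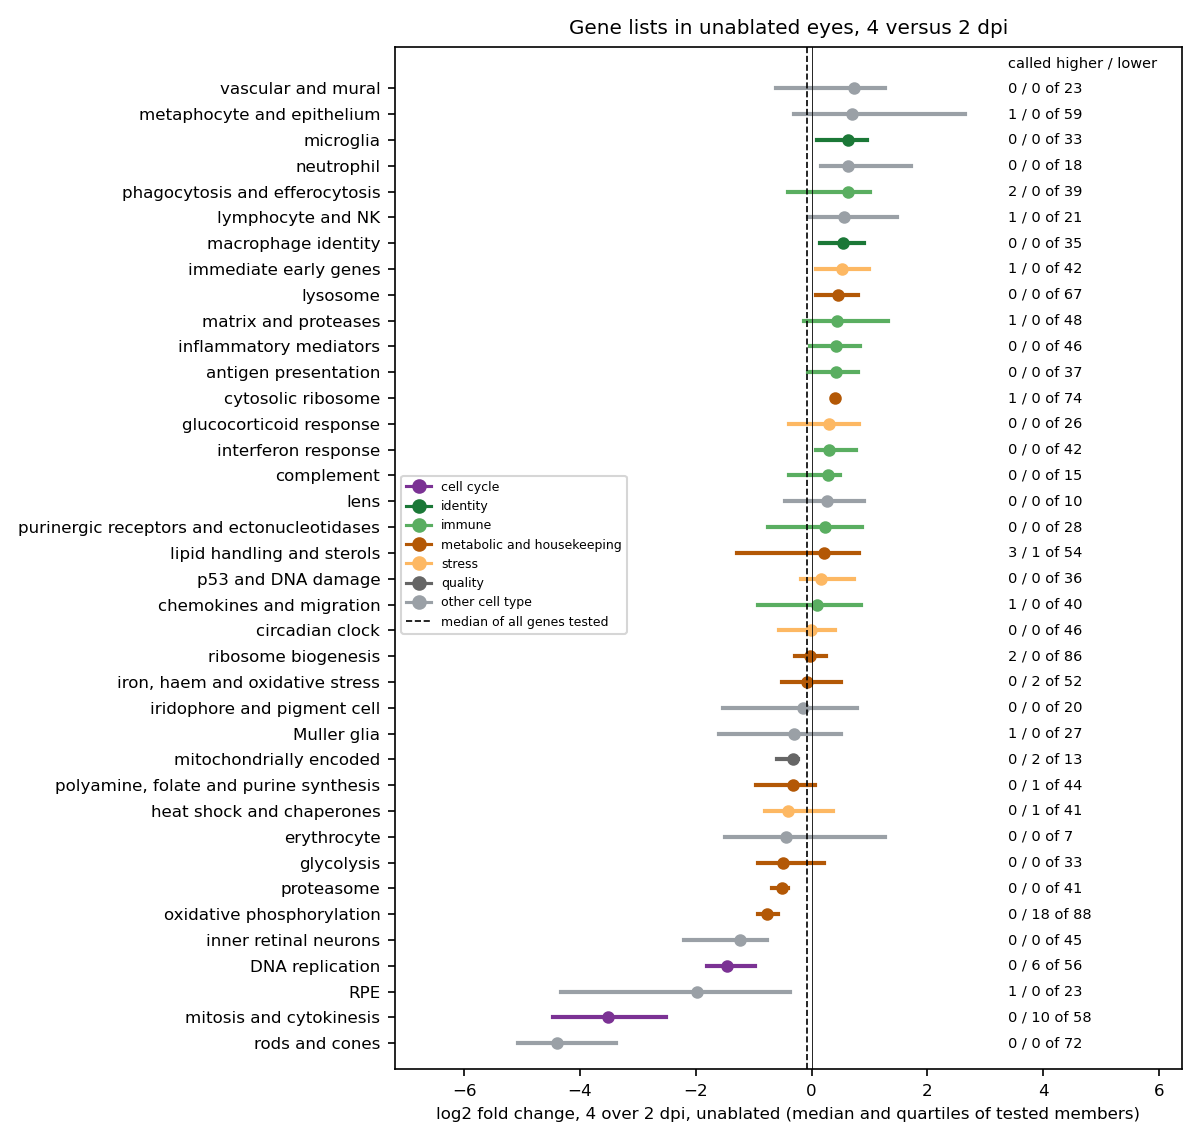
Median log2 fold change (points) and quartiles (bars) of the tested members of each of 38 gene lists, 4 over 2 dpi in unablated eyes, with the number of members called higher and lower printed at the right. The dashed line is the median of all genes tested, -0.08; mitosis (-3.52) and the rod and cone list (-4.41) lie farthest below it, and of these the rod and cone list has no called member.

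The respiratory chain was lower at 4 dpi by a small and even amount. Of 88 tested genes of oxidative phosphorylation encoded in the nucleus 18 fell (against 0.608% of all genes) and 0 rose, 85 had a negative log2 fold change, and the median was -0.76 (quartiles -0.92 and -0.58). Averaged over the list, log2(CPM + 1) was 7.48, 7.09 and 6.89 at 2 dpi and 6.41, 6.3997 and 6.54 at 4 dpi, so the groups did not overlap. Grouped by complex after values were seen, calls came from complex I (7 of 38), complex III (3 of 9), complex IV (3 of 18) and the ATP synthase, complex V (5 of 19), with medians of -0.80, -0.75, -0.72 and -0.77. Complex II had 0 calls among 4 members, with a median of -0.32.

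atp5mc1, which encodes the proton-carrying c subunit of ATP synthase (chromosome 3, 23599290 to 23604396), stood at 659, 492 and 509 CPM at 2 dpi and 210, 224 and 243 CPM at 4 dpi (-1.29, SE 0.17, adjusted p = 0.0215). cox5ab, of cytochrome c oxidase, stood at 209, 191 and 197 CPM and then at 81.8, 97.7 and 98.0 CPM (-1.10, SE 0.15, adjusted p = 0.022). cox7a2a, of the same complex, stood at 503, 318 and 234 CPM and then at 133, 116 and 133 CPM (-1.47, SE 0.24, adjusted p = 0.0346). These levels were nearly equal among the 4 dpi libraries, and 2 dpi replicate 1 was the highest library for each of the 3 genes. ndufa12, an accessory subunit of complex I, fell by 0.98 (SE 0.16, adjusted p = 0.0346) on the log2 scale. Of the 13 protein genes of the mitochondrial genome 2 fell (against 0.608% of all genes), both subunits of ATP synthase. mt-atp6 stood at 2051, 1600 and 1505 CPM and then at 1008, 890 and 998 CPM (-0.83, SE 0.14, adjusted p = 0.0346), and mt-atp8 fell by 1.08 (SE 0.19, adjusted p = 0.0412) on the log2 scale. mt-atp8 ends at 9058 and mt-atp6 starts at 9052 in the deposited coordinates, so reads over that short stretch cannot be placed in one gene. The median of the 13 was -0.32, against -0.51 without 2 dpi replicate 3 and -0.21 without both photoreceptor-rich libraries.

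Photoreceptors are rich in mitochondria, and photoreceptor RNA was high in 2 dpi replicates 1 and 2, the libraries that were also highest for the oxidative phosphorylation list. Without both libraries, which left replicate 3 alone at 2 dpi, the median was -0.45. With 2 dpi replicate 3 left out, 48 of the 88 genes fell, against 309 of all 18947 genes in that fit. That library was poor in photoreceptor RNA and rich in epithelial RNA. The calls were 6 and 2 without 2 dpi replicate 1 or 2, and 0, 2 and 2 without 4 dpi replicate 1, 2 or 3, and 34 with DESeq2's size factors. Beyond these values, the part of photoreceptor RNA in the result was not tested.

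Proteasome genes were lower without passing the test. Of 41 tested subunit genes 0 were called by edgeR and 39 had a negative log2 fold change (median -0.51). At an unadjusted p under 0.05 there were 24, all lower, against 8.21% of all genes tested. DESeq2 called 18 lower, limma voom 3, and edgeR with DESeq2's size factors 8. Over all genes these fits called 1092 of 17239, 280 of 18079 and 243 of 18079 lower. psma3, of the alpha ring of the core particle, stood at 256, 247 and 362 CPM and then at 164, 167 and 185 CPM (-0.74, SE 0.19, adjusted p = 0.0966), without overlap. psma1 (-0.24, SE 0.16) and psma2 (-0.51, SE 0.24) overlapped between the ages. The median was -0.79 without both photoreceptor-rich libraries.

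Genes of the cytosolic ribosome were higher as a group by a narrow margin. All 74 tested ribosomal protein genes had a positive log2 fold change, with a median of 0.40 and quartiles of 0.36 and 0.48, and this median was positive under each scaling tried (0.24 to 0.62 over all alternatives). Their mean log2(CPM + 1) was 8.72, 8.89 and 9.15 at 2 dpi and 9.39, 9.34 and 9.31 at 4 dpi, without overlap. rpl3, of the large subunit, was the 1 member that rose (against 0.26% of all genes). It stood at 1808, 1950 and 2006 CPM and then at 2870, 2733 and 2955 CPM (0.57, SE 0.11, adjusted p = 0.0447). The 2 dpi libraries with the most photoreceptor RNA had the lowest ribosomal means, and without both the median was 0.24. With 2 dpi replicate 3 left out, 29 members rose, against 184 of all 18947 genes in that fit. In each other omission of a single library 0 members rose. Among 86 genes of ribosome assembly 2 rose (against 0.26% of all genes), both of the large subunit pathway. nop53 stood at 49.4, 55.6 and 59.5 CPM and then at 103, 116 and 86.9 CPM (0.89, SE 0.16, adjusted p = 0.0412). rsl24d1 stood at 198, 214 and 177 CPM and then at 373, 371 and 328 CPM (0.87, SE 0.16, adjusted p = 0.0416). The median of the 86 was -0.02, and -0.11 to 0.19 when any single library was left out.

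**Figure D3:**
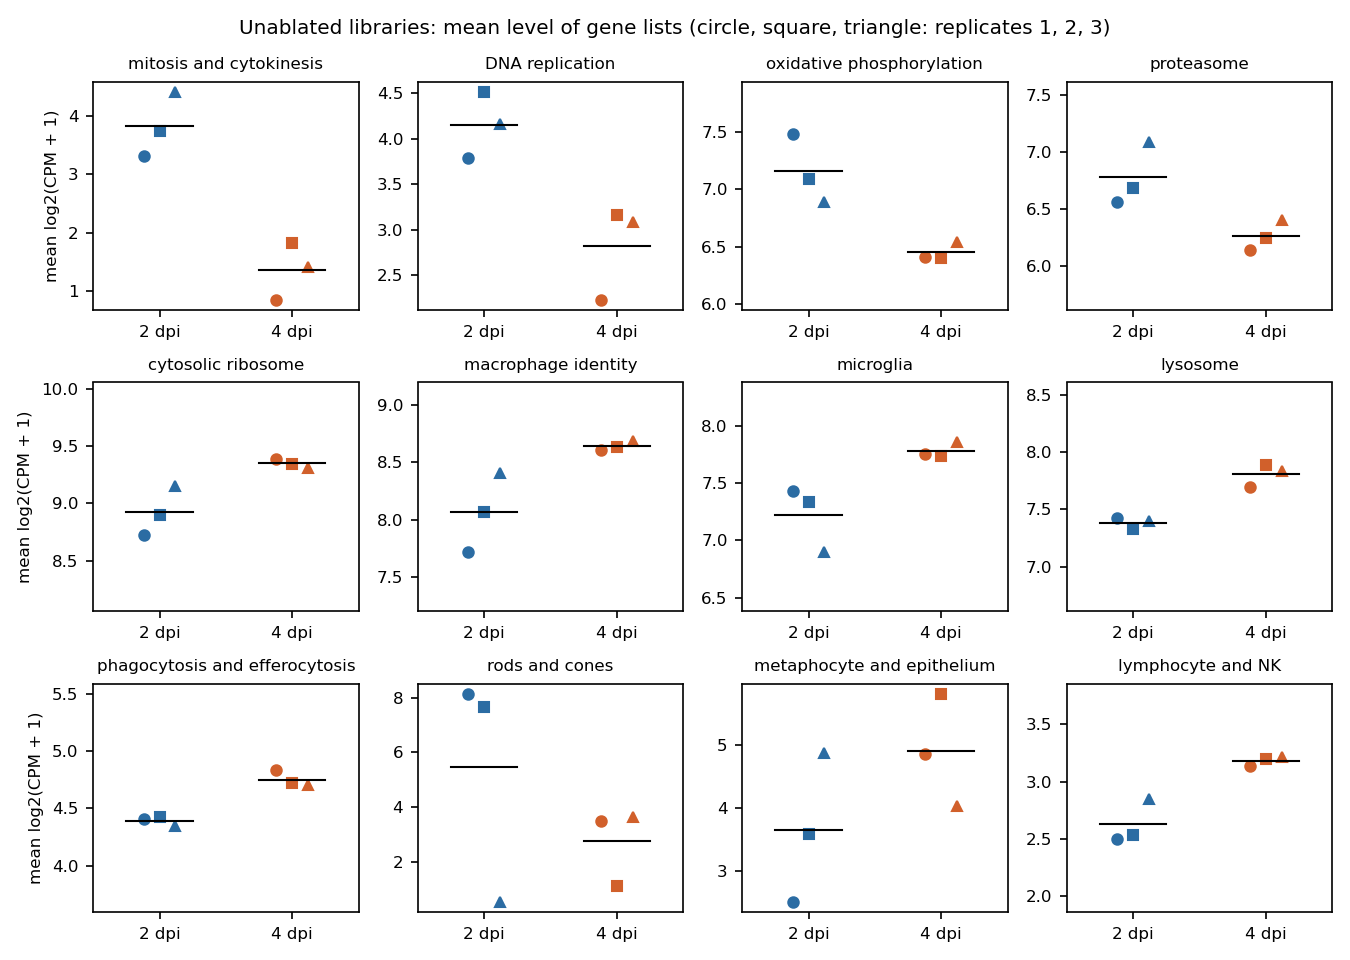
Mean log2(CPM + 1) over the members of 12 lists in each unablated library; markers give the replicate, black lines the group mean, and each panel has its own vertical range of at least 2 log2 units. The 2 ages do not overlap for mitosis, replication, oxidative phosphorylation, the proteasome, the ribosome, macrophage identity, microglia and the lysosome, and they overlap for rods and cones and for metaphocytes and epithelium.

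Among called genes with a mean of at least 10 CPM and no placeholder symbol, the 12 largest rises were of varied roles. The placeholder gene si:ch211-161h7.5 rose more than these, from a mean of 0.697 to 11.9 CPM (log2 fold change 4.09, SE 0.77, adjusted p = 0.0437). slc43a3b, whose human homologue carries purine nucleobases (chromosome 14, 17125428 to 17162558), stood at 31.7, 9.37 and 21.7 CPM at 2 dpi and 389, 237 and 128 CPM at 4 dpi (log2 fold change 3.59, SE 0.60, adjusted p = 0.0387). mtmr12, of the myotubularin family of phosphoinositide phosphatases and one of its catalytically inactive members (chromosome 5, 41105602 to 41124241), stood at 4.39, 3.59 and 2.68 CPM and then at 18.3, 23.1 and 23.5 CPM (2.60, SE 0.33, adjusted p = 0.014). slc16a5a, of the monocarboxylate transporter family, stood at 2.44, 3.80 and 2.09 CPM and then at 20.7, 10.2 and 13.7 CPM (2.42, SE 0.40, adjusted p = 0.0366). slc43a3b varied most among the 4 dpi libraries and mtmr12 least. glud1a, the mitochondrial glutamate dehydrogenase (chromosome 13, 22679084 to 22699024), was the most abundant of the 12, at 439, 354 and 250 CPM and then 910, 1288 and 966 CPM (1.60, SE 0.30, adjusted p = 0.0427). eepd1, named for its endonuclease and phosphatase domain, rose (1.77, SE 0.31, adjusted p = 0.0412), and so did pcbd1 (1.91, SE 0.31, adjusted p = 0.0346), which encodes the pterin dehydratase that recycles the cofactor of aromatic amino acid hydroxylases.

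Genes of lipid export and of the uptake of dying cells were among those that rose. pltp, the phospholipid transfer protein (chromosome 6, 55357188 to 55393309), stood at 27.9, 31.8 and 22.02 CPM and then at 119.5, 105 and 155 CPM (2.22, SE 0.34, adjusted p = 0.0309). abca1a, the transporter that loads cholesterol and phospholipid onto apolipoproteins (chromosome 1, 52560549 to 52628407), stood at 148, 108 and 62.96 CPM and then at 272, 327 and 277 CPM (1.46, SE 0.29, adjusted p = 0.0484). pparg, the lipid-sensing nuclear receptor (chromosome 11, 609516 to 669558), stood at 19.9, 24.4 and 20.8 CPM and then at 59.1, 59.1 and 44.2 CPM (1.32, SE 0.25, adjusted p = 0.0447). In the 3 genes every 4 dpi library lay above every 2 dpi library by a clear margin. Against 0.26% and 0.608% of all genes tested, these 3 of 54 lipid and sterol genes rose and 1 fell. The latter was acat2, an acetyl-CoA acetyltransferase at the start of sterol synthesis, at 23.9, 27.4 and 14.2 CPM and then 3.41, 2.71 and 6.49 CPM (-2.37, SE 0.45, adjusted p = 0.0431). The list's median was 0.22, with 0.11 to 0.27 when any single library was left out and 0.95 without both photoreceptor-rich libraries. apoeb, the apolipoprotein that was the most abundant transcript of each 4 dpi library, did not pass. It stood at 26655, 13426 and 11935 CPM and then at 30138, 50098 and 38204 CPM (1.19, SE 0.52, adjusted p = 0.315), without overlap.

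mertka, the receptor kinase through which macrophages and RPE cells recognise apoptotic cells and shed photoreceptor tips (chromosome 13, 47623916 to 47691710), stood at 75.9, 84.8 and 79.1 CPM at 2 dpi and 188, 220 and 180 CPM at 4 dpi (1.29, SE 0.23, adjusted p = 0.0412). Its levels were nearly equal within each age. It also stands on the RPE list, the other 22 tested members of which had no call in either direction. rpe65a, the isomerase that defines the RPE, was at 1.37, 338 and 2.92 CPM at 2 dpi and 5.87, 0.628 and 6.58 CPM at 4 dpi (-4.70, SE 1.905, adjusted p = 0.282), with overlap between the ages. Of 39 tested genes of phagocytosis and efferocytosis mertka and abca1a rose (against 0.26% of all genes), 0 fell and the median was 0.63. No call remained in this list in any fit without a single 4 dpi library. Without 2 dpi replicate 3, 4 members rose and 1 fell, against 184 and 309 of all 18947 genes in that fit. Among lipid genes 0 to 2 rose and 0 fell in each other omission of a single library, and with 2 dpi replicate 3 left out 2 rose and 3 fell.

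Further genes among the largest rises act on the matrix or the cytoskeleton. loxl2b, of the lysyl oxidases that crosslink collagen, stood at 10.0, 9.16 and 3.18 CPM and then at 36.2, 50.8 and 25.3 CPM (2.33, SE 0.45, adjusted p = 0.0456). It was the 1 call among 48 tested matrix and protease genes, against 0.26% of all genes that rose. The median of this list was 0.44 (0.73 without 2 dpi replicate 3 and 1.015 without both photoreceptor-rich libraries). plecb, a plectin that links intermediate filaments to other structures, stood at 6.59, 6.67 and 5.89 CPM and then at 26.1, 22.3 and 19.97 CPM (1.83, SE 0.31, adjusted p = 0.0403). antxr2a, an anthrax toxin receptor that binds matrix collagens, stood at 12.6, 9.16 and 8.34 CPM and then at 27.2, 41.2 and 33.97 CPM (1.76, SE 0.30, adjusted p = 0.0406). For these 3 genes 2 dpi replicate 3 was the lowest library. The unconventional myosin gene myo18ab rose by 1.62 (SE 0.29, adjusted p = 0.0412).

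ahnak, which encodes a giant scaffold protein of the cell cortex (chromosome 14, 26759332 to 26796334), stood at 4.25, 10.6 and 7.93 CPM and then at 25.3, 47.1 and 27.9 CPM (2.14, SE 0.39, adjusted p = 0.0416). It was the 1 call among 59 tested genes of the metaphocyte and epithelium list, against 0.26% of all genes that rose. The list's median was 0.70 (0.08 to 2.12 when any single library was left out, and -0.35 without both photoreceptor-rich libraries). The share of counts on that list was 0.181%, 0.901% and 2.35% at 2 dpi and 1.22%, 1.36% and 0.797% at 4 dpi, with overlap. epcam did not pass (-0.56, SE 1.11, adjusted p = 0.898). Whether epithelial RNA contributed to ahnak was not tested.

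Most genes that define macrophages and microglia were slightly higher at 4 dpi, and none passed. In the macrophage identity list edgeR called 0 of 35 members, and DESeq2 and limma voom each called 4 higher. Over all genes DESeq2 called 412 of 17239 higher and limma voom 243 of 18079. At an unadjusted p under 0.05 there were 11, all higher (against 7.03% of all genes), and the median was 0.54. ptprc, the pan-leukocyte phosphatase CD45, stood at 154, 203 and 87.6 CPM and then at 274, 258 and 316 CPM (0.94, SE 0.28, adjusted p = 0.151). csf1ra, the receptor for colony-stimulating factor 1, stood at 82.98, 107 and 97.8 CPM and then at 149, 139 and 242 CPM (0.88, SE 0.28, adjusted p = 0.161). In the microglia list edgeR called 0 of 33, DESeq2 called 4 higher and limma voom 3. At an unadjusted p under 0.05 there were 14, all higher (against 7.03% of all genes), and the median was 0.63. p2ry12, the purinergic receptor of ramified microglia, stood at 37.4, 47.02 and 38.4 CPM and then at 57.3, 100 and 79.8 CPM (0.95, SE 0.31, adjusted p = 0.181). In ptprc, csf1ra and p2ry12 the ages did not overlap. The macrophage list took 2.31%, 4.57% and 8.03% of counts at 2 dpi and 3.99%, 4.205% and 4.03% at 4 dpi, with overlap. In 2 dpi replicate 3 a single member of this list, grn2, took 5.54% of all counts. The microglia list took 4.70%, 2.95% and 2.40% and then 5.81%, 8.48% and 7.15%, without overlap. The mean log2(CPM + 1) of the macrophage list was lowest in the 2 libraries rich in photoreceptor RNA (7.71 and 8.07, against 8.41 in the other 2 dpi library and 8.61 to 8.68 at 4 dpi), whereas that of the microglia list was lowest in 2 dpi replicate 3 (6.90, against 7.43 and 7.34 in the photoreceptor-rich libraries and 7.74 to 7.86 at 4 dpi). Without both photoreceptor-rich libraries, with replicate 3 alone at 2 dpi, the median was 0.33 for the macrophage list and 1.32 for the microglia list. The microglia median was 0.96 without 2 dpi replicate 1.

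Most lysosomal genes were higher too, and none passed. edgeR called 0 of 67, and DESeq2 and limma voom each called 5 higher, against 412 of 17239 and 243 of 18079 genes. At an unadjusted p under 0.05 there were 21, all higher, against 7.03% of all genes tested. The median was 0.46, 54 members were higher, and the list mean was 7.43, 7.33 and 7.40 at 2 dpi and 7.70, 7.89 and 7.84 at 4 dpi. By share of counts the ages overlapped, at 3.45%, 5.42% and 8.67% at 2 dpi and 5.87%, 5.82% and 5.90% at 4 dpi. ctsd, the aspartyl protease cathepsin D, stood at 1713, 1319 and 999.9 CPM and then at 2349, 2608 and 2640 CPM (0.91, SE 0.36, adjusted p = 0.259). ctsba, a cathepsin B, stood at 2713, 2127 and 1991 CPM and then at 3615, 4404 and 4278 CPM (0.85, SE 0.31, adjusted p = 0.223). Neither gene's libraries overlapped between the ages. lamp1a, a lysosomal membrane glycoprotein, was low, at 2.88 to 4.19 CPM and then 5.41 to 8.435 CPM (0.88, SE 0.45, adjusted p = 0.394).

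The lists of immune signalling held 0 or 1 edgeR call each, beside 0.26% of all genes tested that rose and 0.608% that fell. At an unadjusted p under 0.05, 7.03% of all genes were higher and 8.21% lower. DESeq2 called 1504 of 17239 genes. Among 40 chemokine and migration genes 1 rose: ccr12a, a chemokine receptor, at 108, 126 and 100 CPM and then 216, 323 and 271 CPM (1.28, SE 0.20, adjusted p = 0.0309). Among 21 tested lymphocyte and NK genes 1 rose: il2rga, the common gamma chain of the interleukin 2 receptor family, at 113, 110 and 108 CPM and then 187, 201 and 249 CPM (0.95, SE 0.18, adjusted p = 0.0447). The share of counts on that list was 0.0738% to 0.0997% at 2 dpi and 0.124% to 0.129% at 4 dpi, without overlap. In the lists of inflammatory mediators (46 genes), complement (15), antigen presentation (37) and interferon response (42) edgeR called 0 genes. At an unadjusted p under 0.05 they held 4, 1, 6 and 7 genes, all higher except for 1 of antigen presentation, and DESeq2 called 2, 0, 3 and 0. The medians of these lists were 0.42, 0.28, 0.41 and 0.30, against -0.08 over all genes tested. Among the inflammatory mediators 6 genes were higher without overlap and 1 lower, against 10.3% and 8.03% of all genes tested. The lower one was il1b, at 118.9, 98.6 and 91.3 CPM and then 62.04, 50.5 and 75.1 CPM (-0.72, SE 0.34, adjusted p = 0.346). tnfa (1.47, SE 1.05) and tnfb (0.15, SE 0.41) overlapped. stat1b, an interferon signal transducer, was at 3.17, 0 and 0.0884 CPM and then at 34.1, 39.6 and 33.1 CPM, and did not pass (5.04, SE 1.85, adjusted p = 0.234).

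The remaining stress and metabolic lists held 0 to 2 edgeR calls each, beside 0.26% of all genes tested that rose and 0.608% that fell. DESeq2 called 412 of 17239 genes higher and 1092 lower. At an unadjusted p under 0.05, 7.03% of all genes were higher and 8.21% lower. zfp36l1b, which promotes decay of messenger RNAs, was the 1 of 42 immediate early genes that rose, at 227, 241 and 172 CPM and then 467, 498 and 490 CPM (1.18, SE 0.23, adjusted p = 0.049). The median of that list was 0.52, against 0.88 without 2 dpi replicate 1 and 1.00 without both photoreceptor-rich libraries. sdf2l1, a chaperone partner of the endoplasmic reticulum, was the 1 of 41 heat shock and chaperone genes that fell (-1.77, SE 0.34, adjusted p = 0.0447). In the list of iron, haem and oxidative stress 2 of 52 fell and 0 rose. gpx4b, the glutathione peroxidase that reduces lipid peroxides, stood at 680, 582 and 1264 CPM and then at 302, 302 and 296 CPM (-1.49, SE 0.26, adjusted p = 0.0412). sod2, the mitochondrial superoxide dismutase, stood at 131, 128 and 59.3 CPM and then at 37.02, 42.5 and 36.8 CPM (-1.45, SE 0.28, adjusted p = 0.0447). Both genes were nearly constant among the 4 dpi libraries. edgeR called 0 of 33 glycolysis genes, with 9 at an unadjusted p under 0.05 and 7 called by DESeq2; ldha, lactate dehydrogenase, stood at -1.20 (SE 0.26, adjusted p = 0.0669). In the circadian clock (46 genes), glucocorticoid response (26), p53 (36) and purinergic (28) lists edgeR called 0. Of these 5, 3, 6 and 7 had an unadjusted p under 0.05, and DESeq2 called 1, 1, 4 and 3. dhfr was the 1 call among 44 genes of polyamine, folate and purine synthesis.

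Markers of other eye cells gave large but unstable differences. Over all genes tested 0.26% rose and 0.608% fell, and at an unadjusted p under 0.05, 7.03% were higher and 8.21% lower. DESeq2 called 412 of 17239 genes higher and 1092 lower. All 72 tested rod and cone genes had a negative log2 fold change, with a median of -4.41, and edgeR called 0, with 4 at an unadjusted p under 0.05 and 6 called by DESeq2. rho, the rod opsin, stood at 72058, 24751 and 0.265 CPM at 2 dpi and 4.71, 81.3 and 4218 CPM at 4 dpi (-4.49, SE 4.23, adjusted p = 0.718). The ages overlapped, and the direction turned when both photoreceptor-rich libraries were left out (12.38) and with a replicate block (3.62). The median of the list was 8.54 and 0.07 in those fits. The lists of the lens (10 genes), inner retinal neurons (45), neutrophils (18), erythrocytes (7), vessels (23) and pigment cells (20) had 0 edgeR calls. At an unadjusted p under 0.05 they held 0, 0, 4, 0, 3 and 2 genes, and DESeq2 called 0, 0, 3, 0, 0 and 3. Among 27 Müller glia genes slc1a3a, a glutamate transporter, rose, at 47.7, 61.8 and 34.8 CPM and then 101, 143 and 134 CPM (1.39, SE 0.26, adjusted p = 0.0423), while the list's median was -0.30 (-1.03 to 0.36 when any single library was left out, and 5.04 without both photoreceptor-rich libraries).

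The same interval was then read in the ablated larvae, which share the title dates but no library with the unablated ones. There 234 genes passed (1.29%), 68 higher (0.376%) and 166 lower (0.918%). Of the 157 genes called in unablated eyes 153 (97.5%) had the same sign in ablated eyes, against 61.1% of all genes tested, and 47 passed in both with the same sign, which is 29.9% of the unablated and 20.1% of the ablated calls. The 157 were picked by a test and all genes were not, so these shares are not like for like. Since the treatments share the title dates, the shared signs cannot tell age from date. In the test of the difference between the 2 changes, edgeR called 0 genes, with 1059 at an unadjusted p under 0.05; DESeq2 called 99, and limma voom and limma on log2(TPM + 1) called 0. Without 4 dpi replicate 2 edgeR called 19. pltp (2.62), abca1a (1.72), pparg (1.69), slc1a3a (1.66) and loxl2b (4.96) also passed as higher in ablated eyes (adjusted p = 0.0214, 0.0308, 0.0272, 0.0273 and 0.0214).

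**Figure D4:**
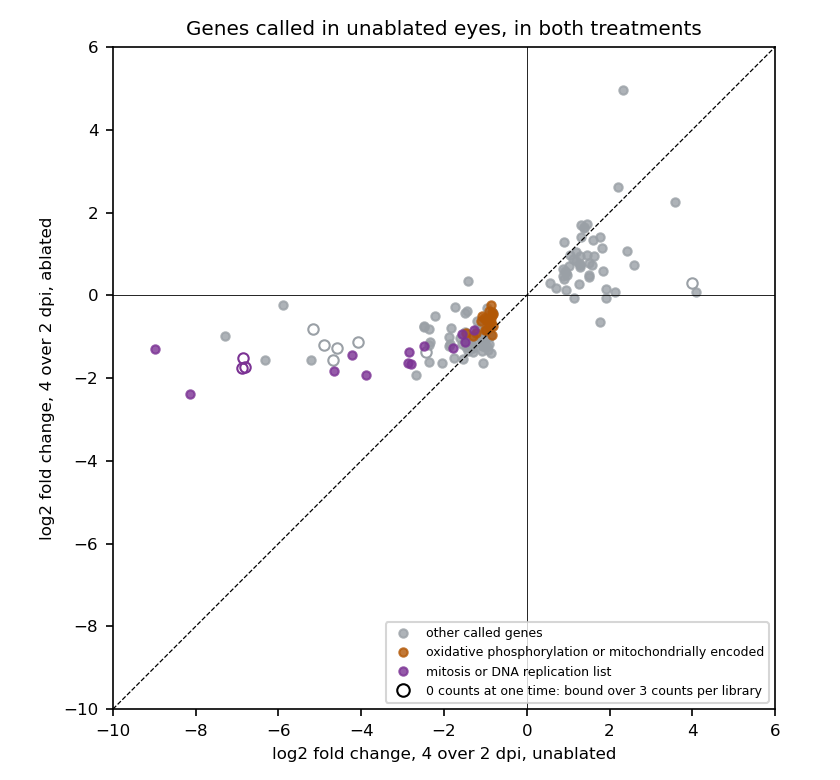
Log2 fold change of 4 over 2 dpi in unablated (horizontal) and ablated (vertical) libraries for the 157 genes called in unablated eyes; the dashed line marks equal change and open circles are bounds for genes with 0 counts at one age. Most points share a sign, and the division genes at the far left, with kif23 at -6.85 or below, lie above the dashed line.

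The division genes kif23 and ccnb1 fell in unablated eyes from a lower start than in ablated ones. kif23 averaged 12.3 ± 5.94 CPM at 2 dpi in unablated and 76.4 ± 21.4 CPM in ablated libraries (SD, n = 3 each), and at 4 dpi 0 and 26.6 ± 10.3 CPM. Its change in ablated eyes was -1.52 (SE 0.44, adjusted p = 0.145). It had the smallest p for the difference between the changes, which did not pass (adjusted p = 0.0577). ccnb1 averaged 18.03 ± 9.56 and then 0.0678 ± 0.0668 CPM in unablated libraries, and 146 ± 40.3 and then 27.8 ± 13.97 CPM in ablated ones (-2.39, SE 0.56, adjusted p = 0.0691; difference adjusted p = 0.134). The median of the mitosis list was -1.62 in ablated against -3.52 in unablated eyes, with 0 and 10 members called. The lists of oxidative phosphorylation (-0.46 against -0.76) and DNA replication (-1.02 against -1.46) had medians of the same sign in both treatments, as did the cytosolic ribosome (0.18 against 0.40). For ribosome assembly the medians were -0.77 in ablated eyes, where 11 of 86 fell, and -0.02 in unablated eyes, where 2 rose. No member of these lists passed the test of the difference.

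A few of the largest rises in unablated eyes had no counterpart in ablated ones by value. antxr2a stood at -0.66 (SE 0.30) there, pcbd1 at -0.05 (SE 0.30) and ahnak at 0.09 (SE 0.38). In ablated libraries antxr2a averaged 58.97 ± 11.3 CPM at 2 dpi and 37.4 ± 13.9 CPM at 4 dpi, and ahnak 69.6 ± 23.5 and 73.8 ± 11.7 CPM, so both were already at or above the level that unablated eyes had at 4 dpi. pcbd1 averaged 61.7 ± 11.6 and 59.4 ± 13.8 CPM. None of the 3 passed the test of the difference (adjusted p = 0.264, 0.738 and 0.811 for antxr2a, pcbd1 and ahnak).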

How the data were processed

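Reads per gene and TPM were deposited by the authors for 25281 genes in 12 libraries, per the file headers, as raw counts and as TPM, a length-scaled abundance, and all 24 value columns were used. Libraries were made with SMART-Seq HT and Nextera XT kits from at most 1000 sorted cells, per the labels' protocols. The build is GRCz11, per the submitters' processing notes; the aligner and the counting program are not named. These kits do not mark strand, so overlapping genes cannot be separated, and counts of close paralogs are uncertain. The cDNA was amplified and its reads are not separate molecules; intervals and floors therefore cover counting error only.

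Both tables were joined by gene identifier. edgeR 4.0.16 (TMM, filterByExpr, robust quasi-likelihood) in R 4.3.3 was fitted to the counts of all 12 libraries in 4 groups. The contrasts were 4 minus 2 dpi in unablated larvae, the same in ablated larvae, and their difference, each with Benjamini-Hochberg adjustment at 0.05; every adjusted p in the text is from these fits. Replicate libraries were not duplicates (mean chi-square per gene at least 96.5). Ratios over 0 counts use a floor of 3 counts in each library. The gene lists and their members were chosen with earlier results of these data known, and 1534 of 1640 list entries were found, 27 through reference names. Lists were described by counts and medians. Shares of counts on 11 lists of other cell types are given as values, since an exact permutation test of 3 against 3 libraries cannot go below p = 0.1.

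Named genes passed, did not overlap between the ages, averaged at least 10 CPM in the higher group and had no placeholder symbol (42 higher and 88 lower qualified); the 12 highest and 12 lowest log2 fold changes were taken. Each list added up to 4 called members of smallest p per direction, or its first 3 members where none was called. mpeg1.1, ptprc, csf1ra, apoeb, p2ry12, mki67, epcam, rho and rpe65a were always given. Other genes in the text were chosen after their values were seen. Alternatives were other size factors, TMM without photoreceptor genes, no filter and a strict one (1 CPM in 3 libraries and a mean of 50 counts), DESeq2 1.42.0, limma 3.58.1 voom, limma on log2(TPM + 1) or log2(TPM + 0.1), unablated libraries alone, a replicate block and omission of libraries. Promoter sequences were not analysed here.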

Additional observations from a re-analysis of the deposited data

How the results depend on the processing

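The 157 calls (47 higher, 110 lower) became 281 (38, 243) with DESeq2's size factors, 260 (84, 176) with the strict filter, 1504 (412, 1092) with DESeq2, 523 (243, 280) with limma voom, 765 (536, 229) on log2(TPM + 1), 739 (493, 246) on log2(TPM + 0.1) and 555 (396, 159) with no TPM filter. TMM without photoreceptor genes gave 173 (58, 115) and no count filter 137 (35, 102). The 6 unablated libraries alone gave 0 in both directions (0 higher, 0 lower; smallest adjusted p = 0.32). Omitting both photoreceptor-rich 2 dpi libraries gave 507 (265, 242). That fit had replicate 3 alone at 2 dpi and so no spread among unablated libraries of that age. Its call counts, here and for the difference between the treatments' changes below, therefore cannot show how stable the calls are. Omitting 1 library gave 14 to 493 calls, 3 to 184 higher and 11 to 309 lower. The lowest came without 4 dpi replicate 1 and the highest without 2 dpi replicate 3. Of the 157, between 14 and 151 were called again in the omissions of 1 library. All kept their sign in all settings, 155 of 155 where fewer were measured. Leaving out libraries could hardly have turned a sign, as none of the 157 overlapped between the ages.

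The difference between the treatments' changes had 0 calls, against 3 with DESeq2's size factors, 5 with no filter, 99 with DESeq2, 66 without both photoreceptor-rich libraries and 0 to 19 without 1 library; the cause was not tested.

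A replicate block gave 11 calls (2 higher, 9 lower). Same-numbered 2 and 4 dpi libraries carry different title dates, so the titles give them at most a number in common. The title of 2 dpi replicate 1 holds no replicate number. After group means were removed same-numbered libraries had r = 0.28, -0.18 and -0.21, and not every library correlated best with its own number. With 3 libraries per age these values cannot decide whether libraries are paired.

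Reversals came in genes that did not pass: rho (3.62 with the replicate block, 12.38 without both photoreceptor-rich libraries), rpe65a (-5.28 to 1.03 over single omissions, the latter without 2 dpi replicate 2, and 0.58 without both) and epcam (0.31 with limma voom, 0.51 on each TPM scale, 0.12 with the replicate block, and -1.09 to 0.76 over single omissions, the latter without 2 dpi replicate 3). With 3 libraries per age and 1 title date at 4 dpi, small changes of low genes could not be resolved.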

Other observations

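Some gene families outside the lists were picked after values were seen, so their counts are descriptions. Over all 18079 genes tested 0.608% fell, and 9712 had a negative log2 fold change. Of 22 tested Sm and LSm genes, which encode the protein rings of spliceosomal small nuclear RNPs, 7 fell and 21 had a negative log2 fold change, with a median of -0.96 in unablated and -1.11 in ablated eyes. snrpg stood at 54.96, 48.5 and 65.9 CPM at 2 dpi and 15.7, 24.98 and 22.3 CPM at 4 dpi (-1.43, adjusted p = 0.0346), and lsm7 at 180, 121 and 157 CPM and then 58.8, 65.9 and 62.3 CPM (-1.29, adjusted p = 0.0251). Without both photoreceptor-rich libraries the median of this family was -0.99. Of 13 HMG genes, which encode small chromatin proteins, 4 fell. hmgb2a stood at 1034, 696 and 748 CPM and then at 307, 349 and 336 CPM (-1.32, adjusted p = 0.026), hmga1a at 630, 730 and 894 CPM and then at 254, 304 and 302 CPM (-1.39, adjusted p = 0.026). The other 2 were hmgn2 (-1.56) and hmgb2b (-1.34), and the family's median was -1.32, against -0.49 without both photoreceptor-rich libraries and -0.50 in ablated eyes. Of 74 mitochondrial ribosomal protein genes 71 had a negative log2 fold change with 1 call (median -0.54), and of 22 TIMM and TOMM import genes 20 had one, with 2 calls (median -0.42). Without both photoreceptor-rich libraries the medians of these last families were -0.23 and -0.21.

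Further single genes, also chosen after their values were seen, belong to known macrophage and lipid functions. sptlc2a, a subunit of the serine palmitoyltransferase that begins sphingolipid synthesis, stood at 45.01, 35.3 and 46.2 CPM at 2 dpi and 111, 135 and 111 CPM at 4 dpi (1.50, adjusted p = 0.00978). sgpl1, the lyase that degrades sphingosine 1-phosphate, stood at 68.9, 95.9 and 81.2 CPM and then at 183, 237 and 180 CPM (1.29, adjusted p = 0.0416). Neither gene's libraries overlapped between the ages. mrc1b, a mannose receptor, rose by 1.01, the interferon regulatory factor gene irf5 by 0.88, the interleukin 10 receptor subunit gene il10rb by 0.89 and the autophagy receptor gene sqstm1 by 1.13 (adjusted p = 0.0442, 0.0425, 0.0416 and 0.0412). gtpbp4 and nsa2, of large ribosomal subunit assembly, rose by 1.195 and 1.04 (adjusted p = 0.0134 and 0.0138). Both subunit genes of the branched-chain ketoacid dehydrogenase E1 enzyme fell, bckdha by 0.96 and bckdhb by 0.95 (adjusted p = 0.0346 and 0.0447). The cause of these differences was not tested, and age and title date cannot be told apart in any of them.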
